A study of Oreochromis niloticus with 6 samples.

Results

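The genes described here encode enzymes that attach ubiquitin to proteins or remove it, in livers of males of the Nile tilapia, Oreochromis niloticus, a fish of warm fresh waters. They were all genes whose product description in the deposited table names a ubiquitin-conjugating enzyme E2, a ubiquitin carboxyl-terminal hydrolase or a ubiquitin-like modifier-activating enzyme. This gave 126 of 29528 genes, of which 5 were activating, 41 conjugating and 80 deubiquitinating enzymes. The rule itself uses no expression value, but it was chosen with earlier results of these data known. No nucleotide or protein sequences were used here. The 3 groups of enzymes act in one cycle. An activating enzyme (E1) loads ubiquitin, a small protein tag, using ATP, a conjugating enzyme (E2) carries it, and a ligase (E3) directs it to a target protein. Chains of ubiquitin send proteins to the proteasome or alter signalling, membrane traffic and DNA repair, and deubiquitinating enzymes cut the tag off again and return free ubiquitin.

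The study set livers with an antisense RNA knockdown of elovl6, a fatty acid elongase gene, against livers of a negative control group of genotype WT, to learn what elovl6 regulates. Every fish was male and ate a pelleted diet with 5% palm oil, and ages are not given in the labels. There were 3 libraries of each group. RNA came from 18 fish, 9 per group, and RNA of 3 replicate tanks per group was pooled, so that the p-values measure the spread between libraries, which may be technical. In bulk tissue, fewer cells of a type and less RNA per cell cannot be told apart.

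Libraries held 14341242 to 14973737 reads in knockdown and 15322360 to 17245179 in control livers. The targeted gene, elovl6, had 37.6 ± 1.48 FPKM (reads scaled to gene length and library total) in knockdown livers, against 162 ± 1.53 FPKM in control livers, 4.34-fold lower. Here and below ± gives the SD over the 3 libraries of a group. The exact 2-sided permutation test gave p = 0.1, and 3 libraries in each group cannot give less. The hepatocyte markers were the most abundant list in the knockdown, summing to 30248 to 30557 FPKM in knockdown and 39890 to 41200 FPKM in control libraries, with 3 of 9 higher and 5 lower. Markers of other cell types moved with the groups. By the test described below, 39.1% of all genes tested were called higher in the knockdown and 39.1% lower. The 9 markers of exocrine pancreas, a tissue that lies within the liver of many fishes, summed to 158 to 275 FPKM in knockdown libraries, against 32287 to 32850 FPKM in control libraries, and all 9 fell, with pla2g1b at 0 reads in the knockdown. Of 7 leukocyte markers 5 were tested and all 5 rose (sums of 393 to 403 against 156 to 165 FPKM). The 3 bile duct markers rose (583 to 607 against 257 to 265 FPKM), as did the 3 tested of 4 endothelial markers (16.9 to 17.8 against 9.49 to 10.1 FPKM) and 3 of 4 tested stellate or fibroblast markers (15.7 to 18.4 against 11.6 to 14.5 FPKM). Both red blood cell markers fell (20.3 to 21.7 against 94.7 to 102 FPKM). None of the 4 muscle markers was tested. Whether these other cell types have a part in the results below was not tested.

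Deubiquitinating and activating enzymes were lower in the knockdown livers more often than higher, whereas conjugating enzymes were called in both directions, with a smaller median change. A gene was tested if its mean over the 6 libraries was at least 1 FPKM, and called changed at an edgeR adjusted p under 0.05. This kept 93 of the 126 genes, among which 9 were under 1 FPKM on average in knockdown livers and 8 in control livers. Such genes passed the filter through their higher group alone. Among the 51 deubiquitinating enzymes tested, 28 fell and 9 rose, while 39.1% of all 11431 genes tested were called lower and 39.1% higher. Among the 39 conjugating enzymes tested, 15 rose and 11 fell, so that 66.7% were called, against 78.2% of all genes tested. Of the 3 activating enzymes tested 2 fell and none rose. Groups did not overlap in 38 of the 51 deubiquitinating and 29 of the 39 conjugating enzymes, against 79.5% of all genes tested. The median log2 fold change (knockdown over control, called log2 change below) was -0.51 for the deubiquitinating and 0.15 for the conjugating enzymes, beside -0.01 over all genes. The median size of the change, whatever its sign, was 1.01 on the log2 scale for deubiquitinating, 0.44 for conjugating enzymes and 0.84 for all genes.

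**Figure D1:**
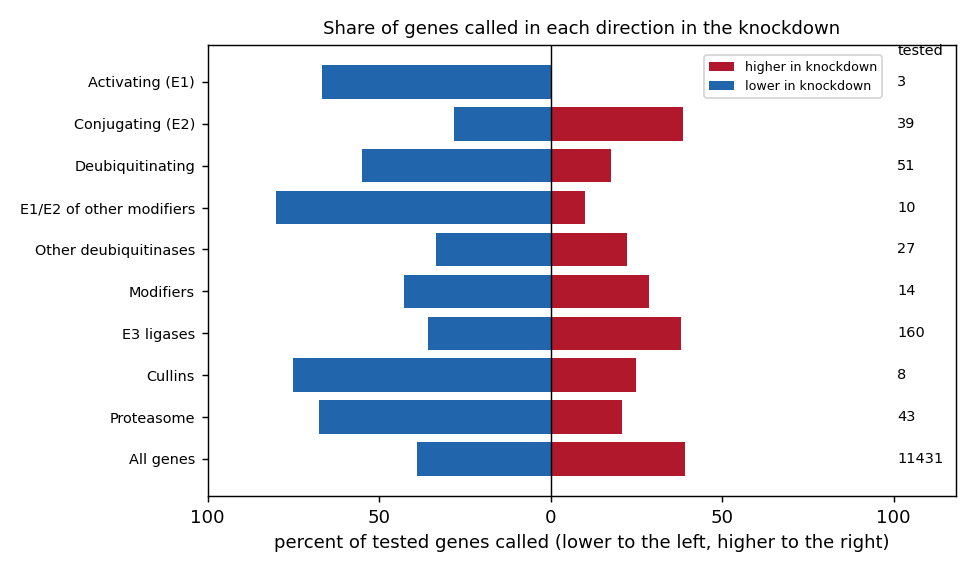
Percent of tested genes called lower (left, blue) or higher (right, red) in the knockdown by edgeR, with the number of tested genes at the right. Deubiquitinating enzymes have 54.9% lower and 17.6% higher, conjugating enzymes 28.2% lower and 38.5% higher, and all genes 39.1% in each direction.

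Added over all 80 deubiquitinating genes, levels were 173, 175 and 179 FPKM in the knockdown libraries, against 303, 313 and 312 FPKM in the controls. Every knockdown library was below every control. The 41 conjugating enzymes summed to 461, 467 and 453 FPKM in the knockdown libraries, against 466, 481 and 479 FPKM in the controls, and here the groups overlapped. Per length, the tested conjugating enzymes had a median level of 4.26 FPKM (range 1.17 to 50.9) and the deubiquitinating enzymes one of 2.89 FPKM (range 1.01 to 27.9). Within groups the median coefficient of variation was 8.78% for conjugating, 10.5% for deubiquitinating enzymes and 9.85% for all tested genes.

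The main ubiquitin E1 gene, uba1, fell in the knockdown. Its levels were 15.1, 12.8 and 15.3 FPKM in the knockdown libraries, against 39.7, 37.8 and 38.7 FPKM in the controls. Every knockdown library lay below every control, with a level 2.70-fold lower (log2 change -1.43 with SE 0.06, edgeR adjusted p = 1.49e-16). The gene lies on linkage group 20 from 18154719 to 18169496, on the minus strand. The autophagy E1 gene atg7 was close to the filter and its groups overlapped, with 0.935, 0.991 and 1.07 FPKM in the knockdown libraries against 1.07, 0.844 and 1.15 FPKM in the controls (log2 change -0.05 with SE 0.27, edgeR adjusted p = 0.881).

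A pair of activating enzymes stayed below the filter. The second ubiquitin E1 gene, uba6, had 0.402, 0.473 and 0.187 FPKM in the knockdown libraries, against 0.868, 0.976 and 0.937 FPKM in the controls, on 77 and 228 reads. The gene LOC100702014, which the table describes as activating enzyme 1 and RefSeq calls uba7 (the E1 of the interferon-induced modifier ISG15 in mammals), had 0.679, 0.923 and 1.06 FPKM in the knockdown libraries against 0.674, 0.682 and 0.795 FPKM in the controls. Its groups overlapped, those of uba6 did not.

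**Figure D2:**
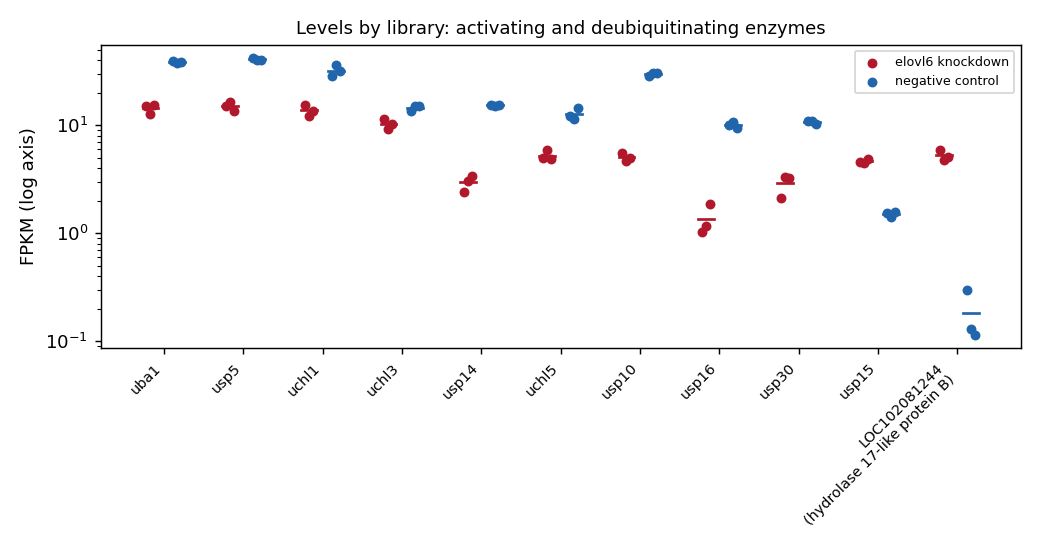
FPKM of 11 activating and deubiquitinating enzymes in each library (log axis), with knockdown libraries in red at the left and control libraries in blue at the right of each pair and a line at each mean. The groups do not overlap in any of the 11 genes, nor in 79.5% of all genes tested. Several of the 11 were chosen by a rule that requires groups without overlap. The genes usp15 and LOC102081244 are the ones higher in the knockdown.

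Enzymes that cut ubiquitin chains at the proteasome or recycle free ubiquitin fell in 5 of 5 genes tested, against 39.1% of all genes. Roles of single genes are background knowledge, mostly from mammals and yeast. The gene usp14, for an enzyme bound to the regulatory particle of the proteasome, had 2.43, 3.03 and 3.43 FPKM in the knockdown libraries, against 15.3, 15.1 and 15.6 FPKM in the controls. The fall was 5.19-fold (log2 change -2.38 with SE 0.12, edgeR adjusted p = 1.75e-15), with no overlap. It lies on linkage group 18 from 19589404 to 19598965, on the minus strand. The other hydrolase of the proteasome in the list, uchl5, had 5.03, 5.88 and 4.83 FPKM in the knockdown libraries against 12.2, 11.5 and 14.3 FPKM in the controls (2.43-fold lower, log2 change -1.28 with SE 0.14). In the free ubiquitin group, usp5, which takes unanchored ubiquitin chains apart, had 15.01, 16.4 and 13.5 FPKM in the knockdown libraries against 41.6, 40.02 and 40.5 FPKM in the controls (2.73-fold lower, log2 change -1.45 with SE 0.07, edgeR adjusted p = 5.68e-16). This was the highest mean level of the class.

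The small hydrolases uchl1 and uchl3 free ubiquitin from short adducts. For uchl1, best known from neurons, there were 15.4, 12.2 and 13.5 FPKM in the knockdown libraries against 28.8, 36.0 and 31.6 FPKM in the controls (2.35-fold lower, log2 change -1.23 with SE 0.10, edgeR adjusted p = 4.39e-11). The level of uchl3 was 11.3, 9.21 and 10.3 FPKM in the knockdown libraries against 13.5, 15.1 and 15.2 FPKM in the controls (1.43-fold lower, log2 change -0.51 with SE 0.12, edgeR adjusted p = 0.000498). In both genes all knockdown libraries were below all controls. The relative of usp5, usp13, was under the filter at 0.299 to 0.510 FPKM in knockdown and 0.140 to 0.186 FPKM in control livers.

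The largest falls among deubiquitinating enzymes were in usp16, usp37, usp10, usp14 and usp30. Levels of usp16, whose product removes ubiquitin from histone H2A, were 1.02, 1.17 and 1.85 FPKM in the knockdown libraries, against 10.2, 10.6 and 9.54 FPKM in the controls (7.51-fold lower, log2 change -2.91 with SE 0.16, edgeR adjusted p = 1.28e-14). Those of usp37, an enzyme of the cell cycle, were 0.230, 0.460 and 0.287 FPKM in the knockdown libraries, against 2.13, 2.28 and 2.03 FPKM in the controls (6.60-fold lower, log2 change -2.72 with SE 0.32, edgeR adjusted p = 3.74e-08). The values of usp37 rest on 43 reads in knockdown and 319 in control libraries, and no library of either gene crossed into the other group. The rule that picked both genes requires this, and usp37 passed the filter through the control group alone. In usp10, known in mammals as a hydrolase of p53 and a partner of stress granule proteins, 5.56, 4.66 and 4.99 FPKM were found in the knockdown libraries, against 28.8, 30.8 and 30.4 FPKM in the controls. The gene, on linkage group 1 from 21758714 to 21780393 (minus strand), was 5.94-fold lower (log2 change -2.57 with SE 0.07, edgeR adjusted p = 2.77e-21). For usp30, an enzyme of the outer mitochondrial membrane that restrains mitophagy, levels were 2.13, 3.35 and 3.23 FPKM in the knockdown libraries against 11.1, 11.001 and 10.4 FPKM in the controls (3.75-fold lower, log2 change -1.91 with SE 0.13, edgeR adjusted p = 1.71e-12).

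Of 9 histone hydrolases 8 were tested, of which 3 fell and 5 were not called, a share of lower genes close to the 39.1% among all genes. Besides usp16 the lower ones were usp7, which also stabilises the p53 ligase Mdm2 (4.79, 4.80 and 5.52 FPKM in the knockdown libraries against 8.30, 8.60 and 9.47 FPKM in the controls), and a usp22 copy, LOC100695527, of the SAGA complex (0.703, 0.933 and 0.820 against 1.37, 1.27 and 1.82 FPKM). The call of this usp22 copy was lost without control library 3. The second usp22 copy, LOC100698953, had overlapping groups at 0.864 to 1.29 FPKM in knockdown and 0.873 to 1.57 FPKM in control livers. The tumour suppressor gene bap1 had 5.51 ± 0.183 FPKM in knockdown and 4.56 ± 0.290 FPKM in control livers, with edgeR adjusted p = 0.0616. In DNA repair, usp1 (1.02 ± 0.136 against 2.26 ± 0.230 FPKM) and usp48 (2.07 ± 0.359 against 3.72 ± 0.326 FPKM) fell, and usp28 had 0 reads in knockdown and 2 in control libraries.

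Of 9 signalling hydrolases tested 4 rose and 3 fell, near the 39.1% of all genes in each direction. Of the related trio usp4, usp11 and usp15, which act on TGF-beta signalling among other targets, usp4 fell (3.29, 4.32 and 4.87 FPKM in the knockdown libraries against 14.3, 14.6 and 13.6 FPKM in the controls, log2 change -1.78 with SE 0.10). Its relative usp15 rose, with 4.56, 4.51 and 4.84 FPKM in the knockdown libraries against 1.54, 1.42 and 1.58 FPKM in the controls (3.04-fold higher, log2 change 1.60 with SE 0.11, edgeR adjusted p = 1.66e-12). The change of usp11 (LOC100710666) was small (log2 change 0.26 with SE 0.09, edgeR adjusted p = 0.016), and its call was lost without control library 2 or knockdown library 2 and with no filter on low values. No library of usp4 or usp15 crossed between the groups, so that usp4 was the more abundant of the pair in the controls and their ranges overlapped in the knockdown. Both copies of hydrolase 2, usp2a (LOC100708948; 1.21, 0.859 and 1.23 FPKM in the knockdown libraries against 3.62, 3.98 and 4.49 FPKM in the controls) and LOC100695864 (0.650 to 1.24 against 1.44 to 2.48 FPKM), fell, although the call of LOC100695864 was lost without control library 3.

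Of 4 copies of CYLD, a hydrolase of non-degradative chains that restrains NF-kappa-B signalling, 2 rose and 2 were not called. Among all genes tested 39.1% were called higher. The copy cyld3 (LOC100693654) had 5.34, 6.07 and 5.35 FPKM in the knockdown libraries against 2.51, 2.29 and 2.48 FPKM in the controls (2.28-fold higher, log2 change 1.19 with SE 0.13, edgeR adjusted p = 7.68e-09). The copy cyldl (LOC100701947) had 3.69, 3.84 and 4.65 FPKM in the knockdown libraries against 2.63, 1.97 and 1.902 FPKM in the controls (log2 change 0.90 with SE 0.17). Groups of both copies were apart. The gene that the table itself names cyld had overlapping groups at 1.99 ± 0.0435 FPKM in knockdown and 2.11 ± 0.133 FPKM in control livers, and cyld2 (LOC100700811) had 0.786 ± 0.306 against 1.24 ± 0.0971 FPKM (edgeR adjusted p = 0.065).

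The largest rise of the whole set was in LOC102081244, described as ubiquitin carboxyl-terminal hydrolase 17-like protein B. It had 5.96, 4.82 and 5.06 FPKM in the knockdown libraries against 0.300, 0.130 and 0.115 FPKM in the controls (28.4-fold higher, log2 change 4.83 with SE 0.28, edgeR adjusted p = 4.41e-14). These values rest on 697 reads in knockdown and 27 in control libraries, and all knockdown libraries were far above all controls. The gene passed the filter through the knockdown group alone. The rule that picked it requires groups without overlap, as found in 79.5% of all genes tested. The gene lies on linkage group 3 from 20121311 to 20129993, and its neighbour from 20133161 to 20139627, LOC102081408, is described as 17-like protein D. That neighbour was below the filter, with 0.713, 0.664 and 1.03 FPKM in the knockdown libraries against 0.0442, 0.0478 and 0.340 FPKM in the controls, on 96 and 20 reads. With such similar names the counting may have split reads between them, so their separate values are uncertain.

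Other hydrolases that rose by the largest amounts were usp43b and mindy4, each on low levels. Both passed the filter through the knockdown group alone. Levels of usp43b (LOC100690273) were 2.01, 2.10 and 2.24 FPKM in the knockdown libraries against 0.947, 1.04 and 0.978 FPKM in the controls (2.13-fold higher, log2 change 1.09 with SE 0.16, edgeR adjusted p = 8.78e-07). For mindy4, of a family that trims long chains, there were 1.27, 2.08 and 1.08 FPKM in the knockdown libraries against 0.797, 0.632 and 0.609 FPKM in the controls (2.16-fold higher, log2 change 1.11 with SE 0.30, edgeR adjusted p = 0.00185). The other MINDY genes tested were mindy1 and mindy2, which fell, and mindy3, which was not called. By family, 23 of 43 USP genes tested fell and 8 rose. Of 4 UCH genes 3 fell and none rose, and of 4 MINDY genes 2 fell and 1 rose. Among all genes tested 39.1% were called lower and 39.1% higher. The hydrolases usp42, usp45, usp38, usp40, usp24, usp46 and usp36 fell as well, with log2 changes of -1.79 in usp42 to -1.01 in usp36. On the higher side were usp32 (3.42, 3.51 and 4.201 FPKM in the knockdown libraries against 1.68, 1.80 and 1.83 FPKM in the controls) and usp25 (6.10, 5.76 and 5.52 FPKM in the knockdown libraries against 3.81, 3.53 and 3.504 FPKM in the controls). Small falls were called in usp12, usp47 and usp19, the last an enzyme of the endoplasmic reticulum (6.28, 6.78 and 6.23 FPKM in the knockdown libraries against 7.43, 6.92 and 7.80 FPKM in the controls), and each of these 3 calls was lost when one or another single library was left out. The endosome genes usp8 and usp9x were not called. None of the 6 hydrolases described as inactive reached the filter.

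**Figure D3:**
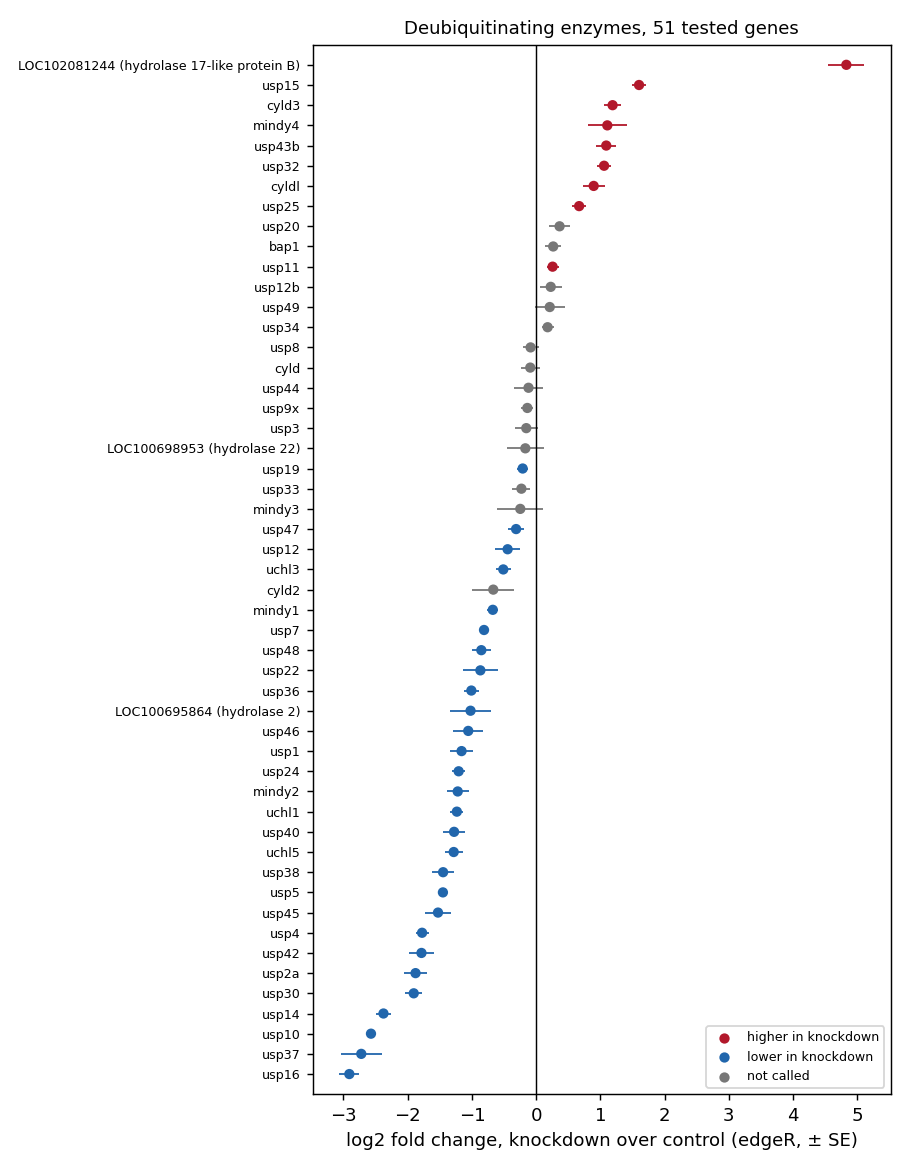
Log2 fold change (knockdown over control, edgeR) of the 51 tested deubiquitinating enzymes, with bars of 1 SE, sorted by size and coloured by call. Values run from -2.91 in usp16 to 1.60 in usp15, with LOC102081244 apart at 4.83.

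The 3 conjugating enzymes with the highest mean levels were LOC100692968, ube2v2 and ube2al, of which 2 fell and 1 was not called. Among all genes tested 39.1% were called lower. The member with the highest mean level was LOC100692968, a UBE2D2 gene, one of the E2s that pair with many ligases. It had 50.1, 47.2 and 42.2 FPKM in the knockdown libraries against 52.6, 60.8 and 52.6 FPKM in the controls (1.20-fold lower, log2 change -0.26 with SE 0.07, edgeR adjusted p = 0.00144), the closest values of the groups being 50.1 and 52.6 FPKM. Next came ube2v2, an inactive E2 variant that helps build signalling chains, with 50.2, 46.2 and 49.2 FPKM in the knockdown libraries against 44.2, 48.2 and 51.7 FPKM in the controls. Its groups overlapped (log2 change 0.01 with SE 0.08, edgeR adjusted p = 0.935). The gene ube2al (LOC100710794), described as UBE2A, an E2 of histone ubiquitination and DNA damage tolerance, had 30.6, 35.7 and 30.3 FPKM in the knockdown libraries against 45.03, 42.1 and 43.2 FPKM in the controls (1.36-fold lower, log2 change -0.44 with SE 0.08, edgeR adjusted p = 2.72e-05). The other gene described as UBE2A, ube2a, was not called (23.2 ± 2.05 FPKM in knockdown against 24.0 ± 0.134 FPKM in control livers). The third gene of this role, ube2b, rose (4.83 ± 0.992 against 2.83 ± 0.553 FPKM). Of these 3 genes 1 rose and 1 fell, beside 39.1% of all genes in each direction.

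Larger changes were found in less abundant conjugating enzymes, but the filter favours large changes among genes of low level. Of the tested E2 genes 4 were under 1 FPKM on average in the controls (ube2c, LOC100695807, cdc34a and LOC100695995). In the knockdown it was 1 (ube2g1b). Each passed through its other group alone. The anaphase-promoting complex E2 gene ube2c had 3.05, 5.21 and 2.24 FPKM in the knockdown libraries against 0.545, 0.589 and 0.971 FPKM in the controls (4.86-fold higher, log2 change 2.28 with SE 0.47, edgeR adjusted p = 9.90e-05). Relative to the mean, its values varied most within the knockdown among tested E2 genes, and they rested on few reads (27 in the controls). Its groups did not overlap, which the rule that picked it requires and which held in 79.5% of all genes tested. Its partner in mitosis, ube2s, had overlapping groups at 3.08 ± 1.07 FPKM in knockdown and 3.45 ± 0.658 FPKM in control livers, and ube2t, of DNA crosslink repair, was under the filter. A UBE2H copy, LOC100695807, had 4.62, 3.98 and 3.32 FPKM in the knockdown libraries against 1.09, 0.628 and 1.06 FPKM in the controls (4.23-fold higher, log2 change 2.08 with SE 0.22, edgeR adjusted p = 7.14e-09). The other copy, ube2h, rose too, with 4.71, 4.41 and 4.80 FPKM in the knockdown libraries against 2.62, 2.85 and 1.95 FPKM in the controls (1.87-fold higher, log2 change 0.90 with SE 0.13). UBE2H is the E2 of the CTLH ligase, whose yeast counterpart degrades gluconeogenic enzymes.

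Of 8 E2 genes of the chains that mark proteins for the proteasome 4 rose and 3 fell, against 39.1% of all genes in each direction. Of these cdc34a (LOC100711003, described as UBE2R2), an E2 of cullin ligases, had 3.16, 3.70 and 4.47 FPKM in the knockdown libraries against 0.754, 0.970 and 1.12 FPKM in the controls (3.95-fold higher, log2 change 1.98 with SE 0.20, edgeR adjusted p = 2.10e-09). Its copy cdc34b (LOC100698375) had 2.59 ± 0.209 FPKM in knockdown and 2.62 ± 0.173 FPKM in control livers, with overlapping groups. In the opposite direction, ube2g1b (LOC100709870) had 1.08, 0.497 and 0.596 FPKM in the knockdown libraries against 4.28, 5.04 and 4.38 FPKM in the controls (6.32-fold lower, log2 change -2.66 with SE 0.30, edgeR adjusted p = 2.03e-08). This was the largest fall among the E2 genes. The filter was passed by cdc34a through the knockdown group alone and by ube2g1b through the control group alone. The copy ube2g1 fell by less (log2 change -0.43 with SE 0.14, edgeR adjusted p = 0.00847), and its call was lost without knockdown library 2.

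Of 3 E2 genes for degradation from the endoplasmic reticulum, ube2j1 (4.87 ± 0.320 FPKM in knockdown against 3.66 ± 0.0491 FPKM in the control livers) and ube2g2 (19.5 ± 1.13 against 15.8 ± 1.23 FPKM) rose, while ube2j2 had overlapping groups (13.7 ± 0.428 against 13.7 ± 0.373 FPKM). The call of ube2g2 was lost without control library 2 or 3 or knockdown library 2, and with no filter on low values. Of 5 genes for signalling chains (UBE2N and its variants) 1 fell, ube2nb (LOC100699741), with 14.6 ± 0.225 FPKM in knockdown and 20.1 ± 1.37 FPKM in control livers. Beside the counts of these 2 roles, 39.1% of all genes tested were called in each direction. Of 10 chain-initiating genes 4 rose and 3 fell, against 39.1% of all genes in each direction. Among these were the neighbours LOC100705406 (UBE2E1; 34.9 ± 0.670 against 20.5 ± 2.44 FPKM) and LOC100705137 (UBE2E2; 7.16 ± 1.47 against 3.56 ± 0.745 FPKM), which both rose and lie 3569 bases apart on linkage group 11. The corresponding neighbours on linkage group 22, ube2e1 (3.54 ± 0.325 against 3.74 ± 0.895 FPKM) and LOC100697459 (2.63 ± 0.594 against 2.22 ± 0.241 FPKM), were not called. The small fall of uevld (LOC100696066), a variant fused to a dehydrogenase-like domain in humans, to 1.18, 1.61 and 1.58 FPKM in the knockdown libraries, against 1.99, 2.41 and 2.43 FPKM in the controls, gave edgeR adjusted p = 0.0297 (log2 change -0.65 with SE 0.27). That call was lost without control library 2 or 3 or knockdown library 1 (edgeR adjusted p = 0.0804, 0.0878 and 0.0970).

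**Figure D4:**
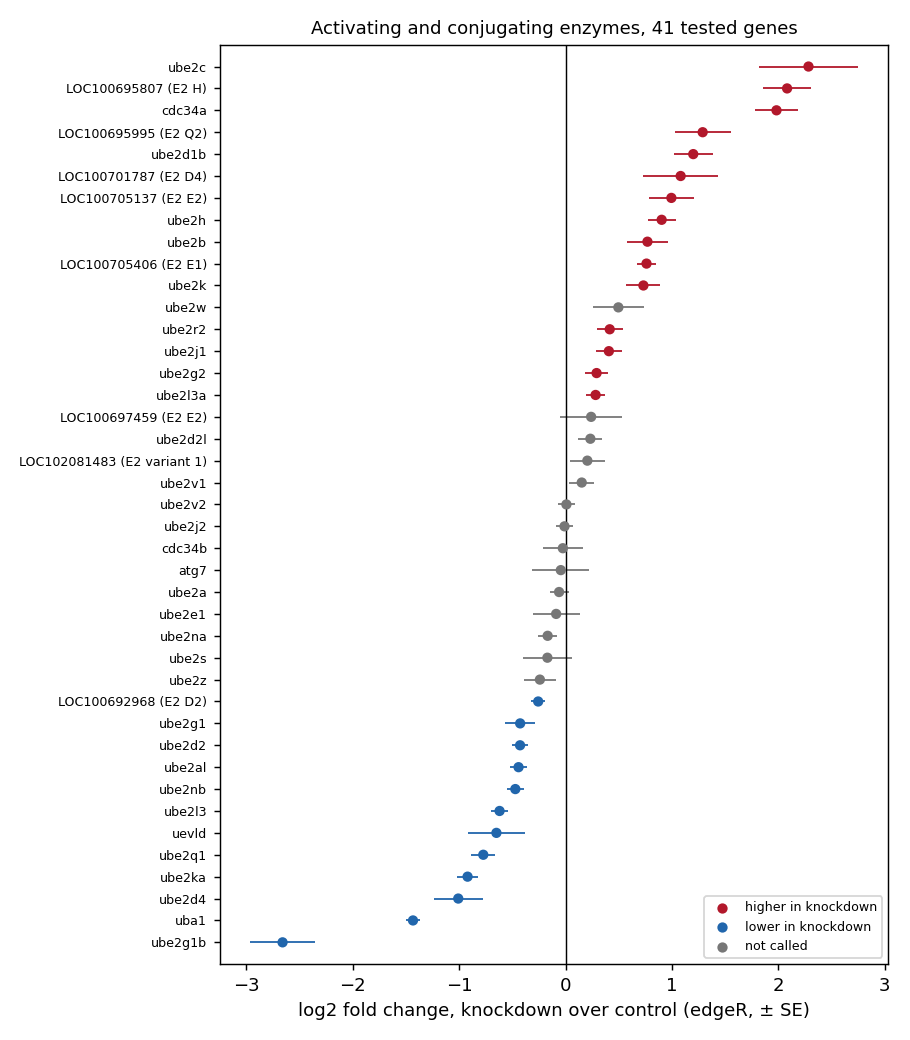
Log2 fold change (knockdown over control, edgeR) of 41 tested activating and conjugating enzymes, with bars of 1 SE, sorted by size and coloured by call. Values run from -2.66 in ube2g1b to 2.28 in ube2c.

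The ancestor of teleosts, the group of fishes that includes tilapia, duplicated its genome, and many of these enzymes are present in several copies. Of the 18 sets of copies (genes with the same protein name, or symbols that differ in a final a or b) with at least 2 tested members, 4 had copies called in opposite directions and 5 had all tested copies called in the same direction. The sets are not fully separate, as cdc34a counts in a set with cdc34b and in another with ube2r2. Conjugating enzymes made up most of the 18 sets and all 4 with opposite calls. In the UBE2Q2 set the higher gene passed the filter through the knockdown group alone. Of all genes tested 39.1% were called lower and 39.1% higher. How often sets of other genes had opposite calls was not worked out.

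For UBE2K, an E2 that extends chains, ube2ka (LOC100708886) had 9.01, 7.73 and 8.62 FPKM in the knockdown libraries against 16.4, 16.005 and 15.3 FPKM in the controls (1.89-fold lower, log2 change -0.92 with SE 0.10, edgeR adjusted p = 7.62e-09). The copy named ube2k had 5.10, 4.43 and 5.02 FPKM in the knockdown libraries against 2.86, 2.96 and 2.90 FPKM in the controls (1.66-fold higher, log2 change 0.73 with SE 0.16, edgeR adjusted p = 0.000213). The difference between the copies in level was thus smaller in the knockdown, with ube2ka still above ube2k. For UBE2L3, the E2 of parkin-type ligases, the copy ube2l3 had 26.4, 27.8 and 23.3 FPKM in the knockdown libraries against 40.8, 37.3 and 40.2 FPKM in the controls (1.54-fold lower, log2 change -0.62 with SE 0.08, edgeR adjusted p = 9.17e-08). The copy ube2l3a (LOC100708998) had 29.2, 27.0 and 27.7 FPKM in the knockdown libraries against 24.1, 23.1 and 21.4 FPKM in the controls (1.22-fold higher, log2 change 0.28 with SE 0.09, edgeR adjusted p = 0.00791). Without control library 3 the call of ube2l3a was lost (edgeR adjusted p = 0.0535), as it was with no filter on low values (edgeR adjusted p = 0.111).

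The table describes both ube2q1 (LOC100693039) and LOC100695995 as UBE2Q2. There were 3.32, 3.91 and 3.44 FPKM of ube2q1 in the knockdown libraries against 5.86, 5.67 and 6.60 FPKM in the controls (1.71-fold lower, log2 change -0.77 with SE 0.11, edgeR adjusted p = 1.11e-06). Its companion LOC100695995 had 1.91, 1.502 and 1.58 FPKM in the knockdown libraries against 0.627, 0.659 and 0.740 FPKM in the controls (2.44-fold higher, log2 change 1.29 with SE 0.26, edgeR adjusted p = 0.000105). Groups were apart in both. The opposite calls of this set rest on LOC100695995, which passed the filter through the knockdown group alone. The 3 genes described as UBE2D4 are ube2d4 (LOC100695653), ube2d1b (LOC109194230) and LOC100701787. The first had 1.93, 1.104 and 2.09 FPKM in the knockdown libraries against 3.13, 3.77 and 3.37 FPKM in the controls (2.01-fold lower, log2 change -1.01 with SE 0.23, edgeR adjusted p = 0.000371). In ube2d1b there were 5.27, 4.93 and 5.26 FPKM in the knockdown libraries against 2.25, 2.05 and 2.39 FPKM in the controls (2.30-fold higher, log2 change 1.20 with SE 0.18, edgeR adjusted p = 1.97e-06), so that ube2d4 was above ube2d1b in the controls and below it in the knockdown. The gene LOC100701787 had 1.75, 2.79 and 2.16 FPKM in the knockdown libraries against 1.25, 0.675 and 1.20 FPKM in the controls (2.11-fold higher, log2 change 1.08 with SE 0.35, edgeR adjusted p = 0.00766), a call that was lost without control library 2 (edgeR adjusted p = 0.0515). Reads of such similar copies may have been split by the counting, so single copies are uncertain. RefSeq symbols differ from the shared product names for ube2q1, described as UBE2Q2, and ube2d1b, described as UBE2D4. The members of these sets may thus not be copies of the same gene.

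**Figure D5:**
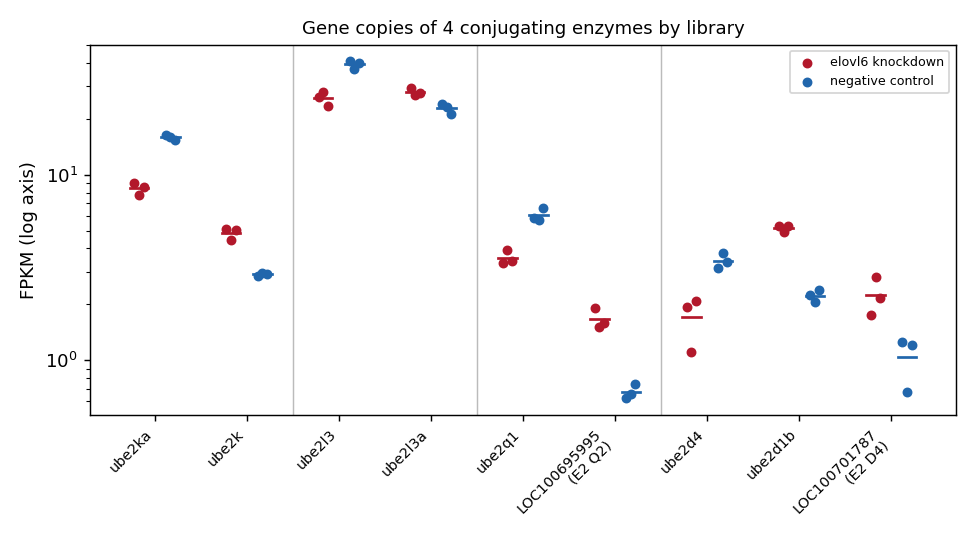
FPKM (log axis) of the copies of 4 conjugating enzymes in each library, with knockdown libraries in red at the left and control libraries in blue at the right of each pair, a line at each mean and grey lines between the enzymes (UBE2K, UBE2L3, UBE2Q2 and UBE2D4 from left to right). The sets were chosen because their members were called in opposite directions. Each therefore holds a gene that is lower in the knockdown and a gene that is higher.

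Other genes of the pathway were listed by product name. Of 10 activating or conjugating enzymes of other modifiers 8 fell and 1 rose, against 39.1% lower and 39.1% higher among all genes. Cullins, the scaffolds of a large ligase family, fell in 6 of 8 tested genes, and the 2 that rose were cul1 and cul4a. Of 43 proteasome genes tested 29 fell and 9 rose. One of these, psmd14, the deubiquitinase inside the proteasome lid and also in the list of other hydrolases, had 12.3, 9.70 and 11.6 FPKM in the knockdown libraries against 30.3, 28.6 and 28.7 FPKM in the controls. Of 27 other deubiquitinases and modifier proteases tested 9 fell and 6 rose, and of 160 E3 ligases 57 fell and 61 rose.

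Genes of ubiquitin itself changed in both directions. The polyubiquitin gene ubb fell to 119, 135 and 135 FPKM in the knockdown libraries, against 254, 246 and 248 FPKM in the controls (log2 change -0.95 with SE 0.05, edgeR adjusted p = 1.13e-15). The fusion gene rps27a (3525 ± 110 FPKM in knockdown and 1333 ± 11.1 FPKM in control livers), which encodes a ubiquitin joined to a ribosomal protein, rose. Over the list of modifiers 4 of 14 tested genes rose and 6 fell, against 39.1% of all genes in each direction.

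The tested deubiquitinating enzyme genes are longer than average (median 4468 bases in the table, against 2036 for tested conjugating enzymes and 2733 for all tested genes). Set beside genes of like length, they were called lower as follows. Between 3000 and 5000 bases 45.5% of 22 deubiquitinating enzymes were called lower, beside 39.4% of all 3047 genes of that length. From 5000 bases upward it was 57.1% of 21, beside 36.4% of 1957, and between 1500 and 3000 bases 71.4% of 7, beside 43.7% of 4480. A single deubiquitinating enzyme tested, uchl3, was shorter, and it fell. No test was made of these differences.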

How the data were processed

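Gene counts and FPKM values of 6 liver libraries were used as deposited. The submitters' processing notes name cutadapt 1.9 and HISAT; the sources used here give no HISAT version, counting program, strand setting or genome build. In the deposited table FPKM equals each count divided by gene length and library total. Reads of antisense, overlapping or near-identical genes may be split. Gene names missing from the table came from RefSeq (O_niloticus_UMD_NMBU), which matched all 126 enzymes; coordinates are the table's.

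Genes of at least 1 FPKM on average (11431, holding 99.0% of reads) were tested with edgeR 4.0.16 (TMM scaling, quasi-likelihood test, R 4.3.3), with Benjamini-Hochberg adjustment over all of them and a threshold of 0.05. Tests were first run on simulated counts. Library values are given for tested activating enzymes, for the 5 largest called, non-overlapping changes per direction and the 4 highest means in each other class, and for copies called in opposite directions; other genes are examples from role groups or were chosen after their values were seen. Some genes that these rules select are not reported here. Members and lists were chosen with earlier results of these data known. Alternatives were DESeq2 1.42.0, limma 3.58.1 on log2 values of the deposited FPKM, other filters and scaling, each library left out, and a replicate block.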

Additional observations from a re-analysis of the deposited data

How the results depend on the processing

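No called enzyme changed direction under any alternative run. The median log2 change of all genes tested in a run lay between -0.01 and 0.05 in each. Runs with other filters tested other sets of genes, so their medians do not compare the same genes. Of the 65 called enzymes 54 kept their call whichever single library was left out. Leaving out the exocrine pancreas markers changed no call of an enzyme. This took them out of the scaling, the fit and the adjustment (11422 genes tested), and left the counts of all other genes as they were. Without 1 library, calls numbered 8531 to 8784 over all genes, 23 to 27 for conjugating and 34 to 36 for deubiquitinating enzymes, of which 24 to 27 were lower. With a minimum mean of 5 FPKM, which tests fewer genes, 4662 genes were called (2341 higher, 2321 lower), with 12 conjugating (5 higher, 7 lower) and 13 deubiquitinating enzymes (2 higher, 11 lower), 14 of the named enzymes, 4 other deubiquitinases and modifier proteases, 49 E3 ligases and 5 cullins. The uncalled log2 changes of atg7 (-0.169 to 0.0413 without 1 library) and ube2v2 (-0.0393 to 0.0596 without 1 library, -0.0885 with no filter) changed sign; the cause was not tested. Same-numbered libraries did not deviate together (correlations 0.001 to 0.007), so no sign of pairing was seen. With 3 libraries per group this cannot exclude that the numbers mark pairs, and the labels do not say. The replicate block gave 8856 calls over all genes, 26 conjugating and 37 deubiquitinating, and changed no call of an enzyme. Low read numbers limit many of the 33 enzymes under the filter, of which 20 had under 10 reads over the 6 libraries. The filter is scaled to gene length, so a gene can fall below it with more reads. An example is usp31, with 248 reads in knockdown and 290 in control libraries.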

Other observations

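Of the 33 enzymes below the filter, 8 had no read in any library and 25 had at least 1. With no filter on low values, 3 of those 25 were called by edgeR, namely uba6 (lower) and LOC102081408 and usp13 (higher). Over all 22678 genes tested in that way 11873 were called. That total includes the 11431 genes above the filter, so it is not a share among genes of like level. The gene usp13, for a relative of usp5, had 94 reads in knockdown and 46 in control libraries (edgeR adjusted p = 0.0387 with no filter). A run of 5 neighbouring genes described as hydrolases on linkage group 15, and one of 7 on linkage group 6, held few or no reads; among these LOC102075878 had the most, with 19 reads in knockdown and 12 in control libraries.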
